A study of Arabidopsis thaliana with 12 samples.

Results

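A set of 126 probe sets, of 22746 measured, gave a lower signal in nitrate-treated than in control roots of Arabidopsis thaliana, by about the same moderate amount in 2 genotypes. The members were chosen from the measurements themselves. In each genotype the mean under KCl had to exceed the mean under KNO3 by 1 to 2 on the log2 scale, which is a 2-fold to 4-fold difference, and all 3 KNO3 samples had to lie below all 3 KCl samples. Of the 130 probe sets that met these conditions, 4 were left out by name, because AT3G21670 and 3 genes of the glycosyltransferase, cytochrome P450 and TRICHOME BIREFRINGENCE-LIKE families had been set aside. Only probe sets with a gene name could be left out in this way. Genes of these families may remain among the members without one. The fall with nitrate is therefore what defines the set, and no test of it is used as support below.

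The samples were whole roots of seedlings 15 days old, 3 per group, each measured on 1 single-channel Affymetrix array. The groups were the tga1/tga4 double mutant given KNO3, the same mutant given KCl, wild type (Col 0) given KNO3 and wild type given KCl, each salt at 5 mM for 2 h from the start of the light period. TGA1 and TGA4, the genes disrupted in the mutant, encode bZIP transcription factors, and the labels give neither the alleles nor what separated the biological replicates. All 4 groups had grown for 14 days with ammonium succinate (0.5 mM) as nitrogen source and sucrose (3 mM), so the KCl roots were supplied with ammonium and were not without nitrogen.

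Nitrate is both a nutrient and a signal for roots. Within hours of its supply, genes for its uptake, its reduction and the supply of reductant are induced, and a smaller group of transcripts declines. Class III peroxidases, which recur in the set, are secreted haem enzymes that use hydrogen peroxide to oxidise phenolic compounds and wall polymers. They take part in stiffening or loosening the cell wall and in forming lignin and suberin.

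The deposited values were log2 intensities with sample medians from 2.21 to 2.41, and no 2 arrays held identical values. The gene table named 1 gene for 56 of the 126 members and several for 4, while 66 members are known here by probe set only. Root identity could be checked on few genes, since of 10 root markers only EXPA7, an expansin of root hair cells, was measured under a name, and of 8 markers of green tissue only RCA, the rubisco activase. EXPA7 averaged 4.33 under KNO3 and 3.80 under KCl in tga1 tga4, and 4.41 and 2.72 in Col 0. It rose in Col 0 by 1.69 (adjusted p = 0.00547 by limma, a linear model that shares its estimate of spread over all probe sets), a call lost without the samples numbered 3 (adjusted p = 0.0905), and its change of 0.54 in tga1 tga4 did not pass (adjusted p = 0.456). RCA averaged 3.88 and 4.22 in tga1 tga4, and 3.84 and 4.31 in Col 0, with no change past the test in either genotype (limma adjusted p = 0.579 and 0.343). The part of either tissue in the results below was not tested. The KNO3 samples numbered 3 stood apart from the others of their groups in many members, as described further on, and values without the samples numbered 3 are given there.

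Across the 126 members the median change, KNO3 minus KCl, was -1.37 in tga1 tga4 and -1.34 in Col 0, which corresponds to 2.58-fold and 2.54-fold lower signals with nitrate. Over all 22746 probe sets the medians were -0.01 in both. The median level of the members was 3.52, 3.62 and 3.54 in the tga1 tga4 KNO3 samples, against 4.97, 4.81 and 4.83 in the tga1 tga4 KCl samples. It was 3.63, 3.81 and 3.28 in the Col 0 KNO3 samples, against 5.21, 4.77 and 4.94 in the Col 0 KCl samples. The KNO3 and KCl samples did not overlap in this measure, which the choice of members fixes. In whole roots, fewer cells of a type and less RNA per cell cannot be told apart.

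**Figure D1:**
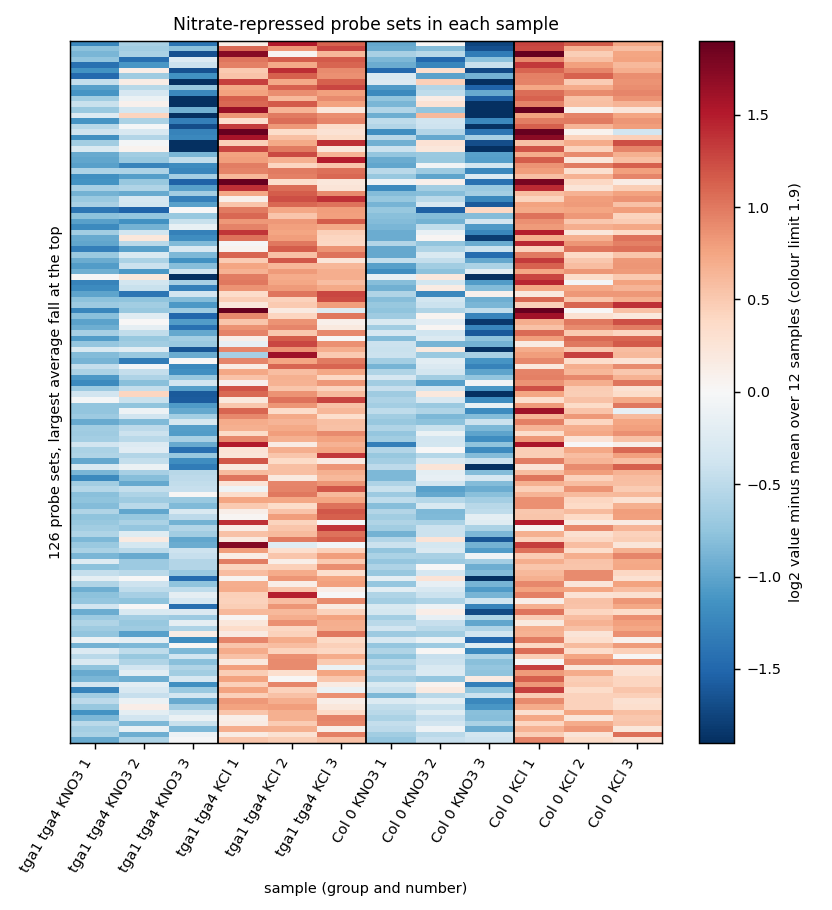
Log2 value of each of the 126 probe sets minus its mean over the 12 samples, one row per probe set with the largest average fall at the top and one column per sample. Blue is below and red above the mean, the KNO3 samples of both genotypes are below the KCl samples by the choice of the rows, and the KNO3 samples numbered 3 are the darkest blue in part of the rows.

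The separation between salts was narrow in some members and wide in others. The gap between the lowest KCl and the highest KNO3 sample had a median of 0.67 in tga1 tga4 and 0.65 in Col 0. It ranged from 0.02 to 1.52 in tga1 tga4 and from 0.04 to 1.40 in Col 0. It reached 1 or more in 24 members in tga1 tga4 and in 21 in Col 0.

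Of the genes named in the set, 4 encode class III peroxidases: AT4G08780, AT1G71695, AT3G21770 and AT4G33420. AT3G21770 was the brightest single-gene member and the steadiest of the 4. Its values were 8.03, 8.27 and 8.37 in tga1 tga4 KNO3 roots, against 9.51, 9.48 and 9.58 in tga1 tga4 KCl roots. In Col 0 they were 8.05, 8.72 and 8.08 under KNO3, against 9.49, 9.70 and 9.56 under KCl. The difference of means was -1.30 in both genotypes, and the replicates of each group lay within 0.7 of each other. AT4G08780 had the largest fall of the 4, with 4.10, 5.36 and 3.58 in tga1 tga4 KNO3 roots, against 5.74, 6.64 and 6.14 in tga1 tga4 KCl roots. Its Col 0 values were 3.76, 5.56 and 3.53 under KNO3, against 6.34, 6.17 and 5.93 under KCl. In both genotypes the KNO3 sample numbered 2 was the highest of its group, and the group SD under KNO3 was 0.91 in tga1 tga4 and 1.11 in Col 0.

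AT1G71695 showed the same uneven KNO3 samples. It stood at 5.55, 6.18 and 4.18 under KNO3 and 6.66, 6.93 and 7.60 under KCl in tga1 tga4, and at 5.29, 6.49 and 4.53 under KNO3 and 6.76, 6.91 and 7.43 under KCl in Col 0. The sample numbered 3 was the lowest under KNO3 and the highest under KCl in both genotypes. AT4G33420 differed most among its KCl samples. It gave 6.34, 6.45 and 5.74 under KNO3 and 8.21, 6.86 and 7.36 under KCl in tga1 tga4, and 5.41, 6.36 and 5.95 under KNO3 and 8.26, 6.71 and 6.82 under KCl in Col 0. Here the KCl sample numbered 1 was the highest in both genotypes. AT4G08770, next to AT4G08780 and close to it in sequence, changed by -1.10 and -1.37 without passing (limma adjusted p = 0.207 and 0.094), and whether both probe sets bind both transcripts was not tested. The members AT4G08780, AT1G71695 and AT4G33420 did not pass in either genotype (limma adjusted p from 0.0655 to 0.134). AT3G21770 was below the threshold in both, which is no support, since the rule chose it by its fall.

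Most other measured members of the peroxidase family did not pass the test for a change with nitrate, and the few that passed went in both directions. A list of the 73 class III peroxidase genes, compiled from general knowledge after the 4 had been seen in the set, had 55 genes measured under a name, 51 of them outside the set. Of these 51, 1 rose, 3 fell and 47 did not pass in tga1 tga4 (limma, adjusted over all probe sets), where 3.17% of all probe sets were called higher and 1.95% lower, 5.12% together. In Col 0, 5 rose, 1 fell and 45 did not pass, with 3.32% of all probe sets called higher and 2.19% lower, 5.51% together. The median change of the 51 was -0.15 in tga1 tga4 and -0.04 in Col 0, and in each genotype 7 of them were lower by 1 or more. Some of the 51, such as AT2G24800 and AT4G33870 (means of 0.41 and 0.48 over all samples), lay far under the sample medians. A change in such genes could be missed, so not passing does not show that they were unchanged. By the rule, the 51 lack the genes that fell by 1 to 2 in both genotypes without overlap. They therefore do not stand for the whole family.

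AT4G36430 was called lower in both genotypes and lay outside the set because its fall in tga1 tga4 exceeded the limit of 2. It averaged 6.74 ± 0.39 under KNO3 and 8.86 ± 0.21 under KCl in tga1 tga4, and 6.92 ± 0.75 under KNO3 and 8.67 ± 0.05 under KCl in Col 0 (SD, n = 3 each; limma adjusted p = 0.00128 and 0.00523). AT5G64100 and AT5G15180 fell in tga1 tga4, by 1.27 and 1.15 (limma adjusted p = 0.000663 and 0.0365), while their changes in Col 0 were -0.51 and -0.60 and did not pass. The call of AT5G15180 was lost without any 1 of 6 samples, with adjusted p from 0.0524 to 0.13, and without the samples numbered 3 (adjusted p = 0.115). The genes that rose in Col 0 were AT4G26010, by 2.29 ± 0.25, AT3G49960, by 1.59 ± 0.23, AT1G30870, by 1.49 ± 0.27, AT5G17820, by 1.07 ± 0.22, and AT2G35380, by 0.92 ± 0.21 (log2 change ± SE, n = 3 per group; limma adjusted p from 0.00015 to 0.0226). The last of these calls was lost without any 1 of the Col 0 samples (adjusted p from 0.052 to 0.0839), and that of AT5G17820 without Col 0 KNO3 replicate 1 or Col 0 KCl replicate 2 (0.0612 and 0.0565) and without the samples numbered 3 (0.112). Only AT1G34510 rose in tga1 tga4 (0.74 ± 0.12, limma adjusted p = 0.00341), at a level below the sample medians. The difference between both genotypes' changes passed in none of these 9 genes (limma adjusted p = 0.999 in each).

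**Figure D2:**
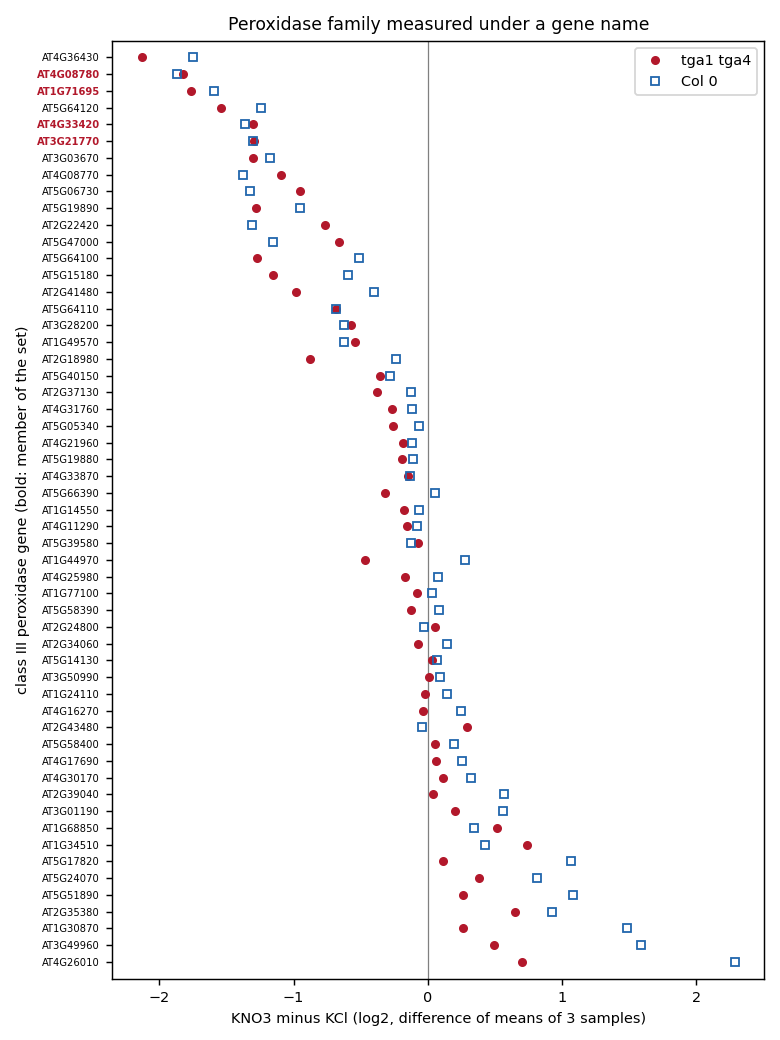
Change with nitrate (KNO3 minus KCl, log2, difference of the means of 3 samples) of the 55 class III peroxidase genes measured under a name, filled circles for tga1 tga4 and open squares for Col 0. The 4 members of the set, in bold, lie at changes from -1.30 to -1.86, and the family spreads from AT4G36430 at -2.13 in tga1 tga4 to AT4G26010 at 2.29 in Col 0.

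Genes of the cell wall were put together as a second group after their values had been seen. The share of such genes among all probe sets was not counted. EXLB1, an expansin-like B protein related to wall-loosening expansins, had 4.70, 5.01 and 5.71 in tga1 tga4 KNO3 roots, against 7.07, 6.84 and 7.22 in tga1 tga4 KCl roots. In Col 0 it had 5.17, 4.88 and 5.68 under KNO3, against 7.46, 6.90 and 6.72 under KCl. The KNO3 sample numbered 3 was the highest in both genotypes, the reverse of AT1G71695, and the salts were still more than 1 apart. AT4G24780, a pectate lyase, which cuts the pectin of the wall, had 5.57, 5.84 and 6.57 under KNO3 and 6.94, 8.03 and 7.73 under KCl in tga1 tga4. Its Col 0 values were 5.90, 6.30 and 6.46 under KNO3 and 7.30, 7.89 and 7.92 under KCl. AT1G62770 and AT1G14890 belong to the pectin methylesterase inhibitor family. Their changes were -1.63 and -1.004 in tga1 tga4, and -1.47 and -1.15 in Col 0. AT3G57630, an exostosin-family glycosyltransferase, changed by -1.33 and -1.09.

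Secreted proteins and families linked to defence were also present. AT4G33720, of the CAP family that includes the pathogenesis-related PR-1 proteins, had 6.85, 7.36 and 6.67 in tga1 tga4 KNO3 roots, against 8.28, 9.03 and 8.89 in tga1 tga4 KCl roots. Its values in Col 0 were 7.47, 7.58 and 6.74 under KNO3, against 8.93, 8.95 and 8.80 under KCl. AT4G33550, of the lipid transfer protein and protease inhibitor superfamily, averaged 4.89 ± 0.59 under KNO3 and 6.82 ± 0.08 under KCl in tga1 tga4, and 4.66 ± 0.39 and 6.46 ± 0.18 in Col 0 (SD, n = 3 each). Both genes had larger falls than the typical member. The chitinase-family genes AT4G19720 and AT3G47540, whose products act on chitin, a polymer of fungal walls, changed by -1.38 and -1.04 in tga1 tga4, and by -1.70 and -1.08 in Col 0. The jacalin-type lectin gene AT1G33790 changed by -1.11 and -1.50, and probe set 249516_s_at, which names the pair AT5G38550 and AT5G38540 of the same lectin family, by -1.31 and -1.34. AT1G14780, of the membrane attack complex and perforin family, changed by -1.57 and -1.55, AT4G28240, of a wound-responsive family, by -1.21 and -1.19, and AT1G78780, of a pathogenesis-related family, by -1.13 and -1.07.

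**Figure D3:**
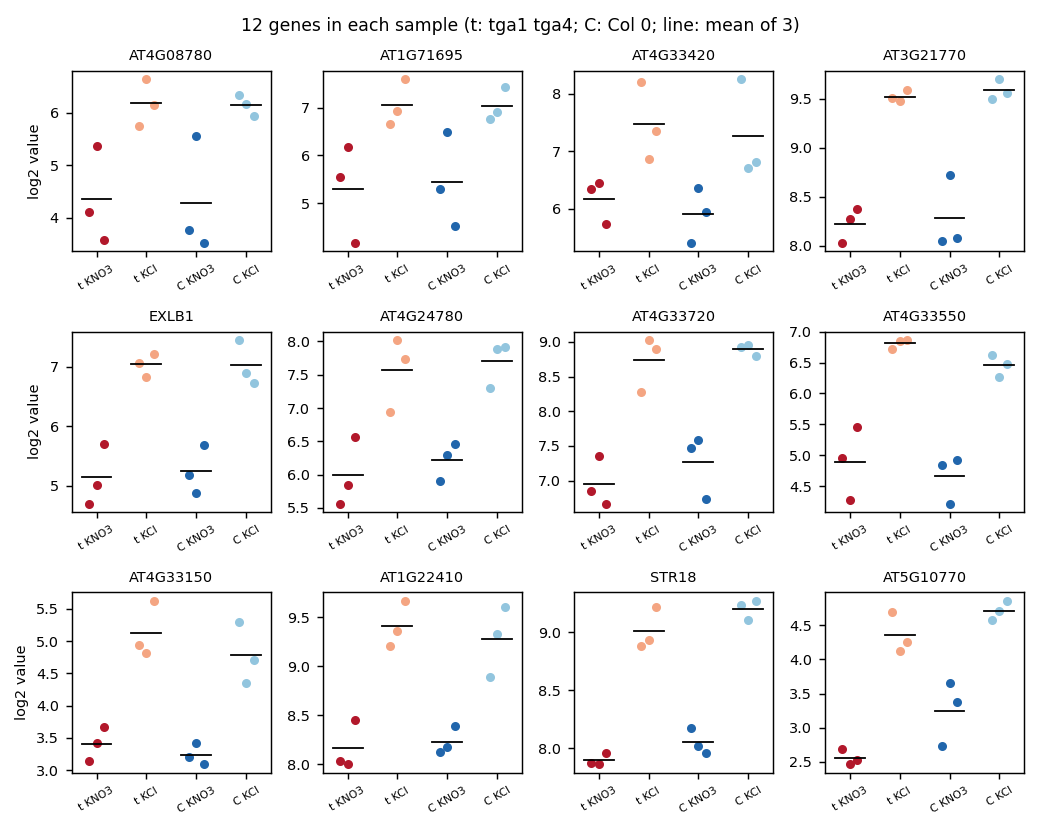
Log2 values of 12 members in each sample, with tga1 tga4 (t) left of Col 0 (C), KNO3 left of KCl, and a line at the mean of 3 samples; each panel has its own scale. In every panel the KNO3 samples lie below the KCl samples of their genotype, and the spread between samples ranges from narrow (STR18) to wide (AT4G08780).

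Another 8 members have roles in perception and signalling. AT1G61360 and AT1G61500, S-domain receptor-like kinases with a lectin-type extracellular part, changed by -1.16 and -1.24 in tga1 tga4, and by -1.40 and -1.62 in Col 0. The leucine-rich repeat genes AT1G13910 and AT1G51890 changed by -1.52 and -1.02 in tga1 tga4, and by -1.47 and -1.11 in Col 0. AT1G67800, a copine-type protein of a class that binds phospholipids, was steady under KNO3, with 3.56, 3.60 and 3.62 under KNO3 and 5.43, 4.87 and 5.12 under KCl in tga1 tga4, and with 3.54, 3.52 and 3.51 under KNO3 and 5.37, 5.17 and 4.77 under KCl in Col 0. The 6 KNO3 samples lay closer together than the 6 KCl samples. The protein kinase gene AT5G57610 changed by -1.04 in each genotype, the phospholipase C-like gene AT1G49740 by -1.09 and -1.25, and AT2G42140, a VQ-motif gene of a family of transcription cofactors, by -1.09 and -1.20. The mean over all samples of these 8 genes lay between 2.39 and 4.34, and levels of different probe sets are not comparable as amounts of RNA. Every KNO3 value of AT1G61500 was under its array's median, so its falls are uncertain in size.

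Metabolic genes included the brightest of the named members after AT3G21770. AT1G22410, a 3-deoxy-D-arabino-heptulosonate 7-phosphate synthase, catalyses the entry step of the shikimate pathway, from which aromatic amino acids and phenolic compounds derive. It stood at 8.03, 8.00 and 8.45 in tga1 tga4 KNO3 roots, against 9.21, 9.36 and 9.67 in tga1 tga4 KCl roots, and at 8.12, 8.18 and 8.39 in Col 0 KNO3 roots, against 8.89, 9.33 and 9.61 in Col 0 KCl roots. The sample numbered 3 was the highest in all 4 groups. STR18, a sulfurtransferase, moves sulfur between small molecules. Its values were 7.87, 7.86 and 7.95 under KNO3 and 8.88, 8.93 and 9.21 under KCl in tga1 tga4, and 8.17, 8.02 and 7.96 under KNO3 and 9.23, 9.10 and 9.27 under KCl in Col 0. It had the smallest spread within groups of the 126 members, a pooled SD of 0.12.

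AT4G33150 encodes the bifunctional enzyme LKR/SDH, which starts the breakdown of lysine. It had 3.15, 3.42 and 3.67 under KNO3 and 4.94, 4.82 and 5.63 under KCl in tga1 tga4, and 3.20, 3.43 and 3.09 under KNO3 and 5.29, 4.35 and 4.71 under KCl in Col 0. The salts stood 1.15 apart in tga1 tga4 and 0.93 in Col 0. AILP1, named as an aluminium-induced protein-like gene, averaged 7.15 ± 0.30 under KNO3 and 8.59 ± 0.42 under KCl in tga1 tga4, and 7.24 ± 0.40 and 8.54 ± 0.50 in Col 0 (SD, n = 3 each). PRN, a pirin, of a cupin family of nuclear proteins, changed by -1.26 in tga1 tga4 and -1.10 in Col 0. The purple acid phosphatase gene AT1G13750 changed by -1.40 and -1.27, the GH3-family gene AT1G48690 by -1.43 and -1.61, and the acyltransferase-family genes AT5G39090 and AT5G67430 by -1.80 and -1.34 in tga1 tga4, and by -1.44 and -1.08 in Col 0. AT3G44840, of the SABATH methyltransferase family, was the dimmest member, with 0.60, 0.72 and 0.47 under KNO3 and 0.79, 3.02 and 1.91 under KCl in tga1 tga4, and 1.01, 0.71 and 0.81 under KNO3 and 2.21, 2.72 and 2.04 under KCl in Col 0. Every KNO3 value of it was under its array's median, where signal and background cannot be told apart here. The same held for the next dimmest named gene, AT1G44160, of the DnaJ chaperone family (1.41 ± 0.32 in tga1 tga4 and 1.32 ± 0.24 in Col 0 under KNO3). It held for AT1G48690 and AT5G39090 as well, so the size of their falls is uncertain.

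The set also held genes of lipid metabolism. The GDSL lipase-type genes AT1G29670 and AT5G55050 changed by -1.76 and -1.62 in tga1 tga4, and by -1.23 and -1.16 in Col 0. The thioesterase-type gene AT5G48370 changed by -1.50 and -1.22, and AT1G68710, a P-type ATPase of the class that flips phospholipids across membranes, by -1.24 and -1.01. These 4 genes were put together after their values had been seen. AT5G40590, a protein with cysteine- and histidine-rich C1 domains, had the largest fall of the named members, with 3.68, 4.29 and 3.53 under KNO3 and 5.04, 6.41 and 6.02 under KCl in tga1 tga4, and 3.93, 4.92 and 3.15 under KNO3 and 6.19, 6.06 and 5.63 under KCl in Col 0. AT5G18130 (-1.80 and -1.97), AT3G03170 (-1.58 and -1.80), AT1G58150 (-1.67 in both) and AT5G11070 (-1.71 and -1.58) followed among the 10 largest named falls, and no role is given for them here. TRM21, of a family of proteins that recruit TON1 to microtubules, changed by -1.24 and -1.13.

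The 66 members without a gene in the table resembled the named ones in size of fall. Their median change was -1.40 in tga1 tga4 and -1.36 in Col 0, against -1.34 and -1.35 for the 56 members with 1 gene, and their median level was 4.34, against 4.02. The largest falls among them were those of 262118_at (-1.85 in tga1 tga4 and -1.88 in Col 0), 250688_at (-1.95 and -1.72), 256825_at (-1.98 and -1.65) and 256650_at (-1.80 and -1.82). The brightest member of the whole set, 266415_at, with a mean of 9.32 over all samples, was also without a gene name. The other 3 probe sets that name 2 genes each were 256869_at (-1.91 in tga1 tga4 and -1.55 in Col 0), 262733_s_at (-1.09 and -1.23) and 254053_s_at (-1.09 in both), the last covering AT4G25310 and AT4G25300, which encode oxygenases of the 2-oxoglutarate type.

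Within the groups, the members did not vary independently. The median pooled SD of a member was 0.38, against 0.26 for the 13769 probe sets in the same range of mean level. In KNO3 roots 64 of the 126 members were lowest in sample 3 of tga1 tga4 and 80 in sample 3 of Col 0, and 52 of them were the same in both genotypes. Conversely 76 were highest in sample 2 of tga1 tga4 and 82 in sample 2 of Col 0, with 60 in common. These orders were not counted over all probe sets. The deviations of same-numbered samples from their group means correlated across the 126 members, with r = 0.31, 0.78 and 0.81 for numbers 1, 2 and 3 under KNO3 and 0.75, 0.51 and 0.51 under KCl. Between unlike numbers within a salt r ran from -0.78 to 0.44, and tga1 tga4 KNO3 sample 1 correlated more with Col 0 KNO3 sample 2 (0.44) than with sample 1. Over the 11373 probe sets above the median level, the same-numbered pairs gave 0.28, 0.64 and 0.73 under KNO3. Under KCl they gave 0.53, 0.34 and 0.50, so such shifts were not particular to the members. Deviations of 3 samples from their mean sum to 0, which lowers r between unlike numbers. All these r are descriptions over probe sets of shared arrays, which are not independent. The median deviation of the members under KNO3 was -0.06, 0.21 and -0.09 in tga1 tga4 samples 1, 2 and 3, and -0.01, 0.27 and -0.25 in the Col 0 samples.

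**Figure D4:**
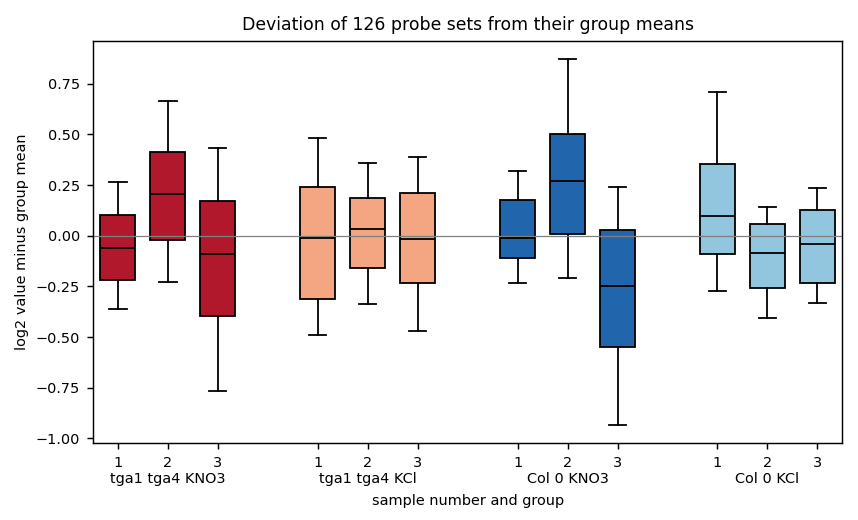
Deviation of the 126 probe sets from their group means (log2) in each sample, boxes spanning the quartiles, the line the median and whiskers the 10th and 90th percentiles. Under KNO3 the sample numbered 2 is highest in both genotypes, with medians of 0.21 and 0.27, and the sample numbered 3 reaches lowest, with a 10th percentile of -0.80 in tga1 tga4 and -0.94 in Col 0.

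The members that differed most between replicates included AT1G58150. It had 3.75, 4.10 and 1.71 under KNO3 and 5.30, 5.01 and 4.25 under KCl in tga1 tga4, and 3.62, 4.25 and 1.74 under KNO3 and 5.22, 4.44 and 4.96 under KCl in Col 0. Sample 3 was thus more than 1.8 below the other KNO3 samples in both genotypes, and the same was seen in 256825_at, with 4.67, 5.25 and 2.64 in tga1 tga4 and 4.83, 5.56 and 2.28 in Col 0. Without the samples numbered 3, the median change of the 126 members was -1.28 in tga1 tga4 and -1.21 in Col 0, 105 and 99 of them were still lower by at least 1, and 86 still met the whole rule. The weakest changes were then -0.54 and -0.56. Leaving samples out cannot make the salts of a member overlap, so only the size limits of the rule could fail here.

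Whether the members differed between genotypes was tested on the genotype difference averaged over both salts, a contrast that the rule did not use. With limma over all 22746 probe sets, 0 of the 126 members were called, against 0.022% of all probe sets, and 2 members (1.59%) had an unadjusted p under 0.05, both lower in tga1 tga4, against 3.45% of all probe sets. Under KNO3 alone 0 members were called, against 0.0132% of all probe sets, and under KCl alone 0 members, against 0.0176%. In each of these, 1 member (0.794%) had an unadjusted p under 0.05, against 1.75% of all probe sets under KNO3 and 4.70% under KCl. A difference under 1 salt also holds part of the difference between both falls, which the rule bounds. The counts under 1 salt are therefore not free of the rule and are a description only. With same-numbered samples paired within each salt, limma called 10 probe sets for the average and 18 under KCl, in place of 5 and 4, and 0 members in either. The median difference over the members, tga1 tga4 minus Col 0, was -0.02, against 0.00 over all probe sets, with a range from -0.52 to 0.39. The median half-width of the 95% confidence interval was 0.42 before any adjustment for the number of probe sets, and larger differences can also miss the adjusted threshold. The intervals and the unadjusted shares are from the fit without pairing, and those of the paired fit are not given here.

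**Figure D5:**
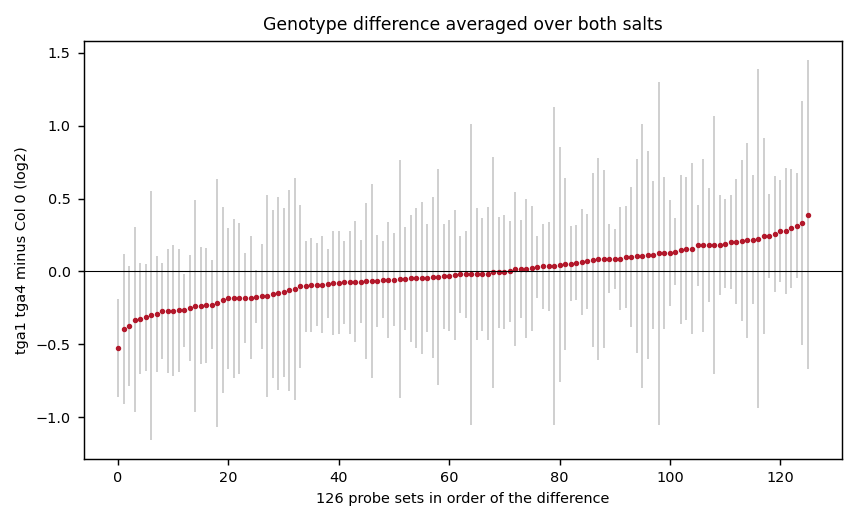
Difference between tga1 tga4 and Col 0 averaged over both salts (log2) for the 126 probe sets in order of size, with 95% confidence intervals from limma without pairing as grey lines. The points run from -0.52 to 0.39, and all but 2 of the intervals include 0.

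The member with the largest genotype difference was AT5G10770, of the aspartyl protease family. It had 2.69, 2.46 and 2.53 in tga1 tga4 and 2.73, 3.65 and 3.38 in Col 0 under KNO3, and 4.69, 4.12 and 4.25 in tga1 tga4 and 4.57, 4.71 and 4.86 in Col 0 under KCl. Under KNO3 the highest tga1 tga4 value was just under the lowest Col 0 value, and under KCl the genotypes overlapped. The averaged difference was -0.52 (95% confidence interval -0.86 to -0.19) with a limma adjusted p of 1, so it did not pass. The next largest differences of named members were those of AT1G61500 (-0.37), AT3G44840 (-0.33) and AT5G18130 (0.31), also with an adjusted p of 1 (limma). AT1G61500 and AT3G44840 were under the array medians in every KNO3 sample.

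The size of the fall was similar in both genotypes within the limits set by the rule. The change in tga1 tga4 minus that in Col 0 had a median of -0.02 and ran from -0.71 to 0.59, and it lay within 0.25 of 0 in 94 members. The fall was larger in tga1 tga4 in 71 members and in Col 0 in 55. The widest differences were in 264960_at (-1.96 in tga1 tga4 and -1.25 in Col 0), 254723_at (-1.80 and -1.18) and AT1G29670 on one side, and in 251436_at (-1.24 and -1.83), 266364_at (-1.18 and -1.75) and 262119_s_at (-1.48 and -1.96) on the other. No test is given, since both falls had to lie between 1 and 2.

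Genes of related pathways were looked up in 9 lists written from general knowledge, for ammonium assimilation, ammonium and amino acid transport, responses to lack of sugar, iron, phosphate or sulfate, the circadian clock, cytokinin and abscisic acid. Of their 118 genes 15 were measured under a name, in 5 of the lists, and 0 were members of the set. Of all 13513 probe sets with 1 gene, 56 were members, so 0 of 15 does not show that these pathways were absent. The other listed genes could not be looked up, and some may be among the 66 members without a gene name. AT3G13610 (F6'H1), the enzyme that makes the precursor of coumarins secreted under iron deficiency, was the one that passed. It had 7.82, 7.70 and 7.82 in tga1 tga4 KNO3 roots, against 8.62, 8.91 and 8.67 in tga1 tga4 KCl roots, and 7.71, 7.90 and 7.61 in Col 0 KNO3 roots, against 8.73, 8.43 and 8.46 in Col 0 KCl roots. The salts did not overlap, and the gene fell by 0.96 in tga1 tga4 and by 0.80 in Col 0 (limma adjusted p = 0.000696 and 0.00254). Both falls were under the lower limit of the set. The other 2 measured iron genes, BHLH101 and PYE, changed by 0.04 and -0.03 in tga1 tga4 and by 0.23 and -0.21 in Col 0 and did not pass. Of 8 sugar starvation genes 0 passed in tga1 tga4 and 0 in Col 0 (limma; 1 and 3 at an unadjusted p under 0.05), with median changes of -0.01 and -0.16. GI, COR15A, ARR15 and ARR16 did not pass either. COR15A, ARR15, ARR16 and BHLH101 had means of 0.57, 0.87, 0.52 and 0.49 over all samples. These lay far under the sample medians, so changes in these genes could be missed.

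The set lay in a continuous range of falls rather than apart from the rest. Just inside the lower limit were AT1G14890, at -1.004 in tga1 tga4 and -1.15 in Col 0, and AT1G68710, at -1.24 and -1.01. Just outside it were 251984_at, at -0.997 and -1.17, and AT3G62280, at -1.24 and -0.995. At the upper limit AT5G40590 (-1.99 and -1.96) and 256825_at (-1.98 and -1.65) were inside, and 253660_at (-2.001 and -1.38) and 255127_at (-2.03 and -1.79) outside. In all, 180 probe sets were lower by 1 or more in both genotypes without overlap, of which 23 exceeded 2 in both and 27 in 1 genotype. The members were brighter than most probe sets, with a median level of 4.20, against 2.35 over all, and 116 of them (92.1%) lay above that median, but a member had to be bright enough under KCl to fall by 1. All 3 KNO3 values were below the sample medians in 17 members in tga1 tga4 and in 17 in Col 0, and the falls of these are uncertain in size.

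The 56 named members lay on all 5 chromosomes, 22 on chromosome 1, 1 on chromosome 2, 8 on chromosome 3, 10 on chromosome 4 and 15 on chromosome 5. As shares this was 39.3% on chromosome 1 and 1.79% on chromosome 2, where 25.8% and 16.5% of all probe sets with 1 gene lay, and the difference was not tested. No 2 named members were direct neighbours. The closest were AT1G14780 and AT1G14890, with 10 protein-coding genes between them, and AT4G33150, AT4G33420, AT4G33550 and AT4G33720 followed one another with 25, 15 and 19 genes between.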

How the data were processed

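Biotin-labelled RNA was hybridised to single-channel arrays, per the labels' protocols. The authors deposited 1 log2 value per probe set and sample, while background correction, normalization and summary method are not given in the sources used here. That values are log2 follows from the hybridisation controls, since cre exceeded bioB by 6.24, against 6.06 for log2 of their nominal ratio. After 64 controls were left out, 22746 probe sets were tested with limma 3.58.1 (R 4.3.3), 1 mean per group, no replicate block, two-sided, Benjamini-Hochberg over all probe sets, threshold 0.05. The number of arrays limits the precision, and nothing says that replicates came from separate plants, so p-values reflect only sample-to-sample spread, possibly technical.

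Within a salt, samples of equal number shifted alike in tga1 tga4 and Col 0 (r over the brighter probe sets 0.276 to 0.726), so the numbers pair genotypes there. The pairing comes from the data. Of all probe sets, 13513 had 1 gene in the gene table, 503 more than 1, and 8730 no entry. Symbols and loci follow TAIR10.1, whose coordinates were used only to order genes along the chromosomes. Listed genes were read at their brightest probe set. Gene families and roles are general background. Role groups and the peroxidase list were made after values had been seen, and members, lists and tests were chosen with earlier results of these data known. Genes were named by size of fall, level, genotype difference, role and nearness to the limits. The model was tested on simulated data without shifts shared between samples, so that test does not cover the pairing seen here.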

Additional observations from a re-analysis of the deposited data

How the results depend on the processing

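With 1 sample left out, the rule gave 110 to 143 probe sets, and without the samples numbered 3 it gave 155. A wider range of 0.8 to 2.2 gave 272. The members called for a genotype difference stayed at 0 under every alternative run, the replicate block and the salt and number replicate block included, each by limma. The median genotype difference of the members ran from -0.0984 to 0.0488. Over all probe sets with 1 sample left out, limma called 4 to 6 for the averaged genotype difference, 3 to 4 under KNO3 and 2 to 18 under KCl, and 720 to 1221 for nitrate in tga1 tga4 and 815 to 1326 in Col 0. The lowest nitrate counts were those without tga1 tga4 KNO3 replicate 1 and without Col 0 KNO3 replicate 1, the 18 that without tga1 tga4 KCl replicate 1, and the 2 those without tga1 tga4 KCl replicate 3 or Col 0 KCl replicate 2. Without the samples numbered 3 the counts were 829 for nitrate in Col 0, 3 for the averaged genotype difference and 1 under KCl. The salt and number replicate block called 10 for the average and 18 under KCl, the random replicate block 8 for the average, and array weights 9 for the average and 1822 for nitrate in tga1 tga4. The causes were not tested. Of 201 recomputed counts and medians 187 stayed within 1.5 times or the spread, and of 259 for single genes outside the set 17 lost their call and 0 reversed. Promoter motifs were planned and not run, since no sequences were used here. Signal near background limits the dimmest members.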
